A study of Mus musculus with 12 samples.

Results

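The genes described here are 32 genes of sterol and fatty acid synthesis, out of 18609 genes listed for RNA-seq libraries of mouse MC38 tumours. They were chosen by symbol from a list drawn up when the fold changes of these libraries, Salmonella over PBS in wild-type hosts among them, were already known; no threshold on a value was applied. They fall into a sterol arm of 18 genes of the mevalonate and cholesterol pathway, a fatty acid arm of 10 genes, and 4 regulators and carriers. All 32 were listed in the files, and all 32 passed the filter on low values.

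MC38 is a mouse colon cancer line, grown here as tumours in C57BL/6 mice. The 12 libraries form 4 groups of 3: TLR4 knockout hosts given Salmonella, TLR4 knockout hosts given PBS, wild-type hosts given Salmonella, and wild-type hosts given PBS. Both agents were injected into a vein and tumours were taken 1 day later, so every host carried an MC38 tumour and every host received an injection. TLR4 is the host receptor for bacterial lipopolysaccharide. The labels do not give the Salmonella strain or dose, the part of Tlr4 that was deleted, the sex or age of the hosts, or whether the tumour cells carry Tlr4. Within each group the libraries are titled F-1, M-1 and M-2. Nothing states that these are separate mice, so the p-values measure the spread between libraries, which may be technical in part.

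Cholesterol is made from acetyl-CoA through mevalonate, isoprenoid units, squalene and lanosterol, and fatty acids are made from acetyl-CoA through malonyl-CoA. Both pathways are switched on by the SREBP transcription factors, which are made as membrane proteins and released by proteases when the endoplasmic reticulum is low in sterol. SREBP-2, from Srebf2, acts mainly on sterol genes, and SREBP-1, from Srebf1, mainly on fatty acid genes. SREBPs bind sterol regulatory elements in promoters, usually beside sites for the general factors NF-Y and Sp1. Srebf1 is also a target of the liver X receptors, which sense oxysterols.

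Promoter sequences of 25 of the 32 genes were found in RefSeq (build GRCm38.p6). The 250 bases before each start were searched on both strands for TCACNCCAC (a sterol regulatory element), CCAAT (the NF-Y site), GGGCGG (the Sp1 site) and CACGTG (the E-box). No motif of this set lies inside another. The Hmgcs1 promoter is shown because, of the 25 genes found, only Hmgcs1 held TCACNCCAC, and because its RNA fell furthest among the sterol genes. The Acss2 promoter, chosen after its values were seen, is shown because Acss2 fell furthest in the fatty acid arm. Only bases that also lie before the GENCODE M21 gene start are printed, 250 for Hmgcs1 (chr13:119690101-119690350, plus strand) and 155 for Acss2 (chr2:155517793-155517947, plus strand). Capitals mark the sterol element, each NF-Y site (which reads ATTGG on the other strand) and each Sp1 site, on either strand. The 250 bases searched for Acss2 hold 1 NF-Y site and 4 Sp1 sites, and that NF-Y site lies in the part that is not printed.
Hmgcs1: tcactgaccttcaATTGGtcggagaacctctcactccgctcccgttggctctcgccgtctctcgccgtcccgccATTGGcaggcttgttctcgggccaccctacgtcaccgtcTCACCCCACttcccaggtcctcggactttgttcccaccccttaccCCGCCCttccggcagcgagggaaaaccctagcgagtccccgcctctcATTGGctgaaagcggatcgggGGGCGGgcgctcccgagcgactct
Acss2: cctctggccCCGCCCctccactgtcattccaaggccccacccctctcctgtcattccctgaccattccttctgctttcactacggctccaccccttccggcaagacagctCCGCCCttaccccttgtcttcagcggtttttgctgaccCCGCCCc

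In Hmgcs1 the sterol element begins 137 bases before the start, with 2 NF-Y sites before it and 1 after it. In the table, 1.22% of 27025 genes have these letters in at least one of their listed promoters, and a sterol element with any other spelling was not searched for. Of the sterol arm, 15 of 18 genes had a promoter in the table. CCAAT was present in 14 of the 15, against 37.5% of all genes in the table, and GGGCGG likewise in 14 of the 15, against 35.4%. CACGTG was present in 3 of the 15, against 6.86%. The shares cover all 27025 genes in the table, not only genes expressed in these tumours as the sterol genes were, so they are not a matched background. For the fatty acid arm only 7 of 10 genes had a promoter in the table, which is too few for a share to be read, and the check is void there. CCAAT was present in 3 of these 7, GGGCGG in 4 and CACGTG in 0. The motifs describe these windows and were not tested against the RNA changes.

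Libraries held 30508681 to 38758889 fragments on listed genes, recovered from the deposited values, which behave as FPKM (fragments normalised to gene length and to the library's total). Each of the 32 genes was seen in every library, with 22 to 52119 fragments. Levels are given as scaled FPKM, that is FPKM divided by a factor that aligns the bulk of genes between libraries, and with libraries ordered by title (F-1, then M-1, then M-2) unless said otherwise. The factor was 0.997 to 1.05 in 10 libraries, and lower, 0.851 (F-1) and 0.853 (M-1), in the first and second of the wild-type Salmonella libraries. Log2 fold changes are on the scale of log2(scaled FPKM + 0.5), with their standard error (SE), and adjusted p-values come from limma with Benjamini-Hochberg adjustment over 12164 tested genes, called at 0.05. Tlr4 was at 1.73 to 1.91 FPKM in knockout Salmonella libraries, 1.55 to 3.01 in knockout PBS, 2.49 to 4.43 in wild-type Salmonella and 2.38 to 2.50 in wild-type PBS, so its RNA was present in libraries of both genotypes. The labelled colon cancer cells could not be seen through epithelial markers: 7 of 9 listed genes of colon epithelium, among them Epcam, Krt8 and Cdh1, stayed under 0.5 FPKM in all 12 libraries. The sum of the 9 genes was 1.57 to 5.08 FPKM in wild-type Salmonella libraries and 0.62 to 1.16 FPKM in wild-type PBS libraries. The 1 gene of them that passed the filter was called higher under Salmonella in wild-type hosts. In bulk tissue, fewer cells of a type and less RNA per cell cannot be told apart.

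In wild-type hosts, Salmonella was followed by lower RNA of both pathways, furthest for genes that desaturate fatty acids and activate acetate. Of the 32 genes 13 fell and 0 rose, and 30 of 32 had a negative log2 fold change. Among all tested genes 17% fell, 18.6% rose and 51.2% had a negative fold change. The median log2 fold change was -0.51 over the 32 genes, against -0.01 over all tested genes. The 3 Salmonella libraries all lay below the 3 PBS libraries for 10 of the 32 genes, against 22.8% of all tested genes, and all above PBS for 1, against 22.7%. Because the list was proposed with these results known, the counts describe it and carry no test.

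**Figure D1:**
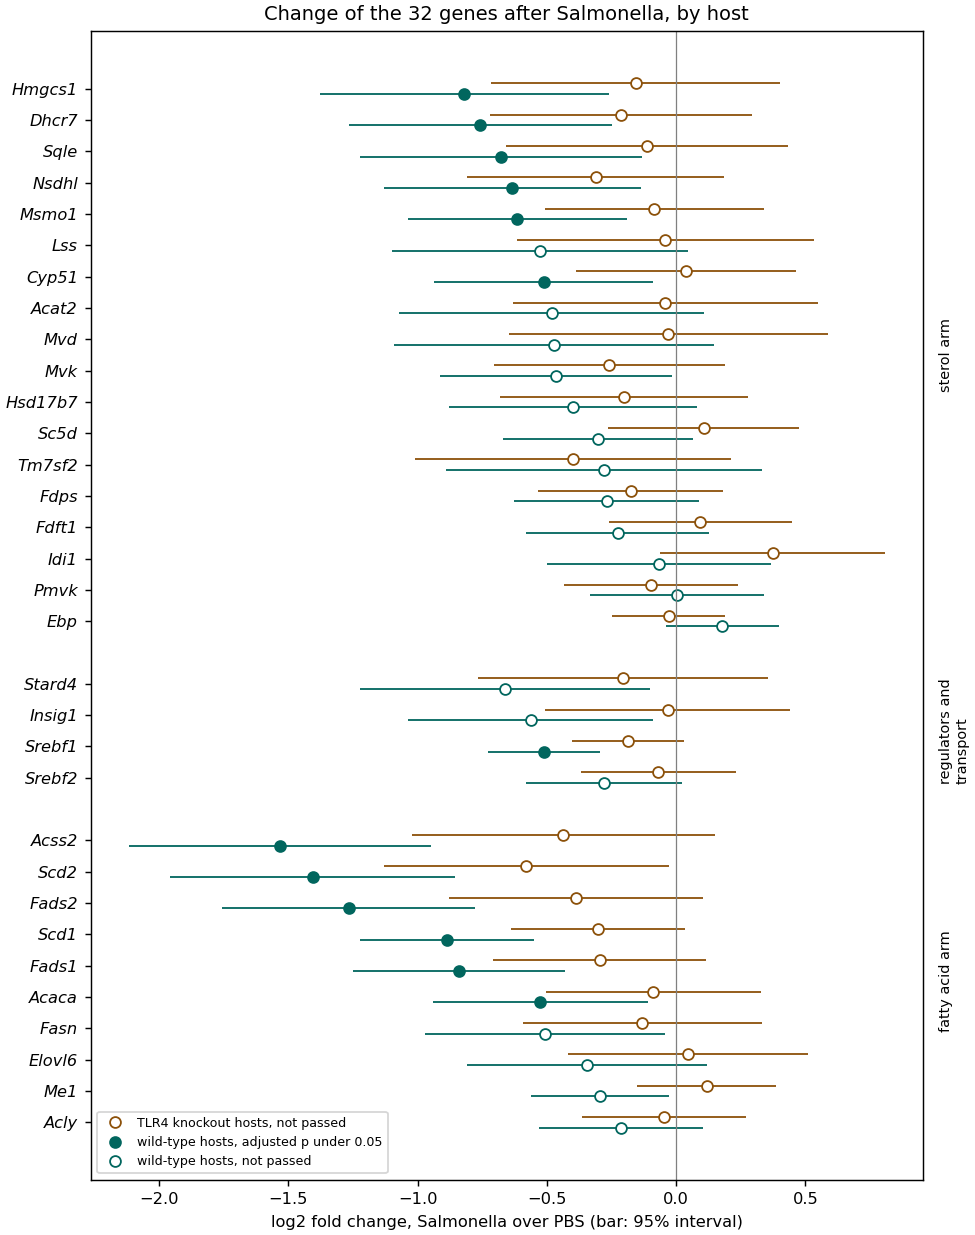
Log2 fold change of Salmonella over PBS for each of the 32 genes, in TLR4 knockout hosts (brown) and wild-type hosts (green), with 95% intervals; filled points passed at an adjusted p under 0.05. In knockout hosts 0 of 32 points are filled, and in wild-type hosts 13 are, with Acss2 at -1.53 and Scd2 at -1.41 furthest to the left.

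Of the regulators, Srebf1, the gene of SREBP-1, fell. It was at 29.1, 29.0 and 33.8 FPKM in wild-type Salmonella tumours and 46.7, 41.6 and 43.2 FPKM in wild-type PBS tumours. The groups did not overlap and each was narrow, and the log2 fold change was -0.51 (SE 0.09, adjusted p = 0.00324, limma). Srebf2, the gene of SREBP-2, was at 51.7, 46.3 and 62.4 FPKM under Salmonella and 69.1, 58.5 and 66.3 under PBS, with overlapping groups (log2 fold change -0.28, SE 0.13, adjusted p = 0.111). Insig1, which holds SREBPs in the endoplasmic reticulum and is itself an SREBP target, had 22.5, 18.9 and 31.3 FPKM under Salmonella and 41.3, 28.5 and 37.2 under PBS. It missed the threshold (log2 fold change -0.56, SE 0.21, adjusted p = 0.0517), as did the sterol carrier Stard4 (log2 fold change -0.66, SE 0.24, adjusted p = 0.0544). Exons of Srebf1 overlap those of Rai1 on the other strand in GENCODE M21, and counting is not stated to use strand.

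In the sterol arm 6 of 18 genes fell in wild-type hosts, and the arm's median log2 fold change was -0.47. Hmgcs1 makes HMG-CoA, the precursor of mevalonate. It was at 45.2, 39.3 and 76.9 FPKM in wild-type Salmonella tumours and 103, 75.2 and 98.5 FPKM in wild-type PBS tumours (log2 fold change -0.82, SE 0.24, adjusted p = 0.0243). Libraries F-1 and M-1 lay far below every PBS library, whereas M-2 lay just above the lowest of them. Sqle, squalene epoxidase, a rate-limiting step after squalene, showed the same order with 34.5, 32.3 and 57.8 FPKM under Salmonella and 70.8, 52.1 and 72.3 under PBS (log2 fold change -0.68, SE 0.24, adjusted p = 0.0454).

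The other 4 falls were among enzymes that turn lanosterol into cholesterol. Cyp51 removes the first methyl group of lanosterol, and was at 64.8, 56.9 and 88.4 FPKM under Salmonella and 110, 81.0 and 106 under PBS in wild-type hosts (log2 fold change -0.51, SE 0.18, adjusted p = 0.0477). Msmo1 and Nsdhl work together on the next methyl groups. Msmo1 had 65.7, 64.6 and 95.4 FPKM under Salmonella and 121, 97.6 and 124 under PBS (log2 fold change -0.62, SE 0.18, adjusted p = 0.0235). Nsdhl had 15.5, 10.6 and 19.3 FPKM under Salmonella and 24.2, 19.98 and 25.5 under PBS (log2 fold change -0.63, SE 0.22, adjusted p = 0.0409). Both separated the groups, though by little in library M-2. Dhcr7, the reductase that completes cholesterol, was at 7.37, 6.92 and 13.4 FPKM under Salmonella and 16.8, 14.1 and 15.1 under PBS (log2 fold change -0.76, SE 0.22, adjusted p = 0.0224). Exons of Cyp51 overlap those of Akap9 on the other strand in GENCODE M21.

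The other 12 genes of the sterol arm did not pass in wild-type hosts. They include the thiolase Acat2, the mevalonate kinases and decarboxylase Mvk, Pmvk and Mvd, the isomerase Idi1, the prenyl and squalene synthases Fdps and Fdft1, the cyclase Lss, and Tm7sf2, Hsd17b7, Ebp and Sc5d, which act on sterol rings. Their log2 fold changes ran from -0.53 for Lss (adjusted p = 0.118) to 0.18 for Ebp (adjusted p = 0.158). Mvk came nearest the threshold (log2 fold change -0.47, SE 0.19, adjusted p = 0.0808). Fdps, highest of the 32 genes in its mean over the 12 libraries though below Scd2 in both PBS groups, was at 196, 152 and 156 FPKM under Salmonella and 215, 180 and 210 under PBS, and its groups overlapped. Ebp, the sterol isomerase, was the one gene of the 32 whose wild-type Salmonella libraries all lay above PBS, at 26.5, 26.7 and 27.6 against 26.3, 22.9 and 22.2 FPKM. Tm7sf2 was the least abundant, at 0.42 to 1.31 FPKM over the 12 libraries, and its exons overlap those of Vps51. Exons of Fdft1 overlap those of Ctsb, an abundant protease gene of macrophages, on the other strand, so its value is uncertain.

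In the fatty acid arm 6 of 10 genes fell in wild-type hosts, with a median log2 fold change of -0.68 over the arm. Acss2 makes acetyl-CoA from acetate. It was at 7.06, 3.80 and 9.62 FPKM in wild-type Salmonella tumours and 19.4, 19.4 and 19.6 FPKM in wild-type PBS tumours. Every Salmonella library held less than any PBS library, and the log2 fold change was -1.53 (SE 0.25, adjusted p = 0.00259), a 2.89-fold lower level. On chromosome 2 from 155517948 to 155585724 (GRCm38), the exons of Acss2 overlap those of Ggt7, Gss and an antisense gene on the other strand.

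The stearoyl-CoA desaturases Scd1 and Scd2 put the first double bond into saturated fatty acids. Scd2 was at 64.6, 77.1 and 150 FPKM under Salmonella and 236, 242 and 246 FPKM under PBS in wild-type hosts (log2 fold change -1.41, SE 0.24, adjusted p = 0.00254). Scd1 was at 38.7, 32.2 and 50.7 FPKM under Salmonella and 78.0, 72.6 and 72.0 FPKM under PBS (log2 fold change -0.89, SE 0.15, adjusted p = 0.00201). Neither gene's groups overlapped, and in both library M-2 stood between the PBS libraries and the other Salmonella libraries. The 2 genes are paralogs that neighbour each other on chromosome 19, so fragments of shared sequence could have been split between them.

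Fads1 and Fads2 encode the desaturases that make long polyunsaturated fatty acids, and they too neighbour each other on chromosome 19. Fads2 was at 31.8, 23.6 and 42.8 FPKM under Salmonella and 83.6, 68.0 and 81.2 FPKM under PBS in wild-type hosts (log2 fold change -1.27, SE 0.21, adjusted p = 0.00252). Fads1 was at 44.7, 37.2 and 59.1 FPKM under Salmonella and 89.8, 74.9 and 85.2 FPKM under PBS (log2 fold change -0.84, SE 0.18, adjusted p = 0.0057). Again every Salmonella library lay below every PBS library. Srebf1, Scd1, Scd2, Fads1, Fads2 and Acss2 passed under each of the 22 other settings tried.

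The enzymes that build palmitate itself changed less. Acaca, acetyl-CoA carboxylase, the rate-limiting step, was at 6.21, 5.16 and 8.29 FPKM under Salmonella and 10.8, 7.77 and 10.1 FPKM under PBS in wild-type hosts, with overlapping groups (log2 fold change -0.52, SE 0.18, adjusted p = 0.0402). Fasn, fatty acid synthase, had 24.0, 24.1 and 32.7 FPKM under Salmonella and 44.9, 31.1 and 39.5 under PBS and did not pass (log2 fold change -0.51, SE 0.20, adjusted p = 0.068). Acly, which splits citrate into acetyl-CoA, had a log2 fold change of -0.21 (SE 0.14, adjusted p = 0.24), and the elongase Elovl6 one of -0.34 (SE 0.20, adjusted p = 0.196). Me1, malic enzyme, which supplies NADPH, was at 45.2, 39.9 and 50.8 FPKM under Salmonella and 57.8, 51.1 and 57.7 under PBS. Its groups did not overlap, by a narrow margin, and it missed the threshold (log2 fold change -0.30, SE 0.12, adjusted p = 0.0647).

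**Figure D2:**
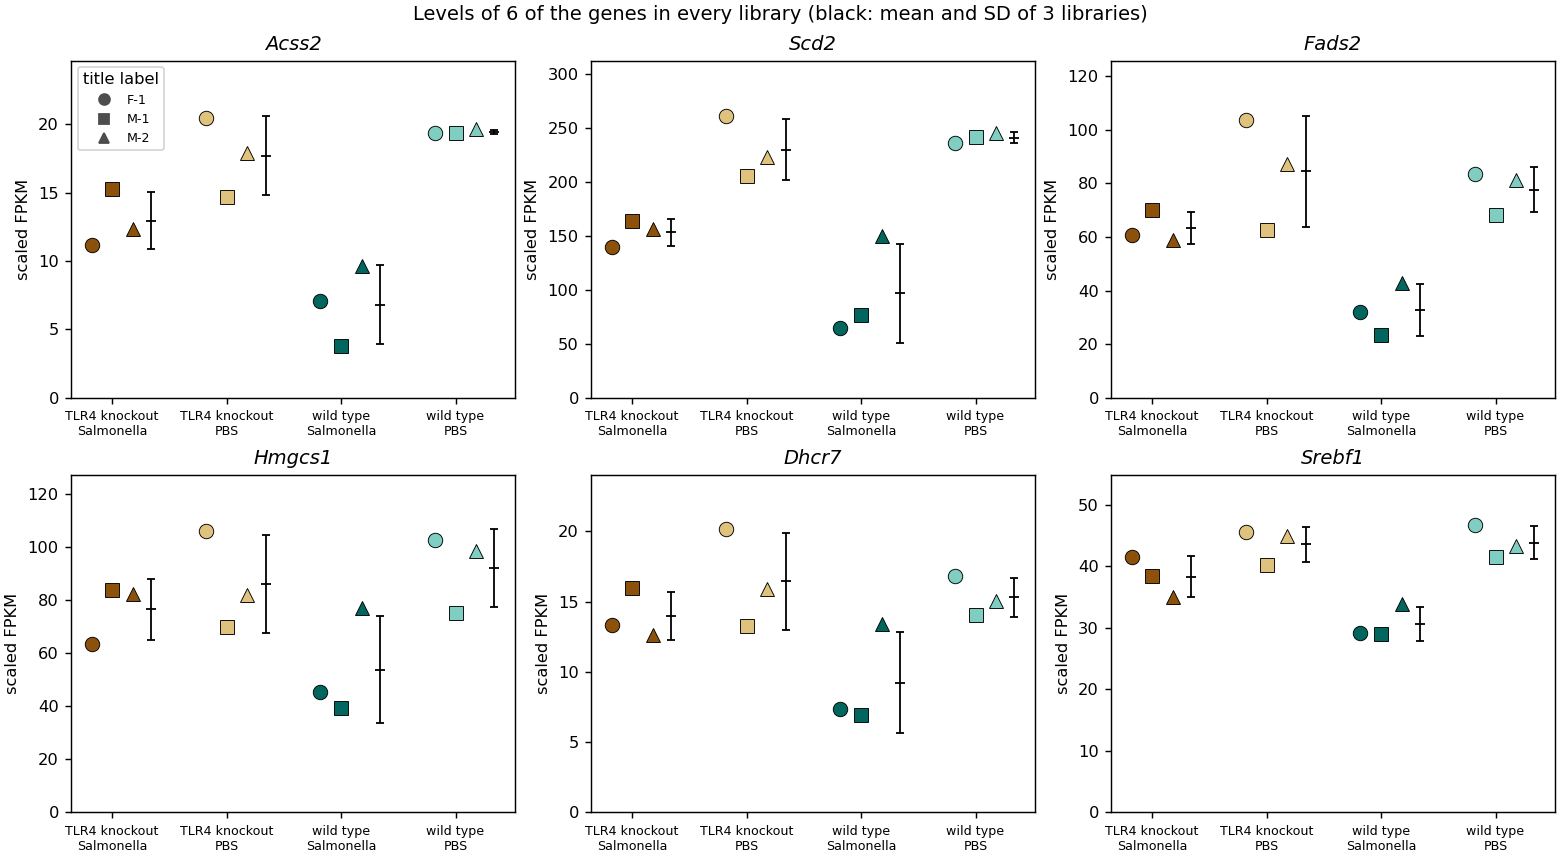
Scaled FPKM of Acss2, Scd2, Fads2, Hmgcs1, Dhcr7 and Srebf1 in each of the 12 libraries by group; markers give the title label, and black bars the mean and SD of 3 libraries. In wild-type Salmonella tumours library M-2 (triangle) is the highest of its group in all 6 panels, at 76.9 FPKM for Hmgcs1 against 45.2 and 39.3 in F-1 and M-1.

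The wild-type Salmonella libraries were not alike. For the sterol arm, F-1 and M-1 had 13 and 16 of the 18 genes below the lowest wild-type PBS library, whereas M-2 had 4. Above the highest wild-type PBS library were 2, 1 and 3 of the 18 in F-1, M-1 and M-2. For the fatty acid arm F-1 and M-1 had all 10 genes below the lowest wild-type PBS library and M-2 had 6, with 0 above the highest. The share of all tested genes outside the PBS range was not computed for single libraries, so these counts have no background. Averaged over the arm, sterol genes in wild-type Salmonella libraries were at -0.50, -0.64 and -0.08 on the log2 scale relative to the wild-type PBS mean. Fatty acid genes were at -0.87, -1.08 and -0.40. M-2 thus lay close to PBS for the sterol arm, and between PBS and its mates for the fatty acid arm.

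All 6 sterol calls and that of Acaca rest on single libraries. Without wild-type PBS F-1, wild-type PBS M-2, wild-type Salmonella F-1 or wild-type Salmonella M-1, the number of the 32 genes that fell was 6 each time, with 0 of 18 in the sterol arm and Acaca no longer called. Calls among all tested genes dropped as well in these fits, from 35.6% with every library to 24.6%, 19.5%, 17.7% and 19.7%, in the same order. Sqle and Cyp51 were also lost without knockout PBS M-2, Nsdhl without wild-type PBS M-1, knockout PBS M-2 or knockout Salmonella M-2, and Sqle, Cyp51 and Acaca without any 1 of the knockout Salmonella libraries. Without wild-type Salmonella M-2 the number of the 32 genes that fell was 25: 11 of 18 sterol genes, 4 of 4 regulators and carriers and 10 of 10 fatty acid genes. That setting also raised the calls among all tested genes to 51.9%, against 35.6% with every library. With FPKM as deposited, without the scaling factor, 20 of the 32 genes fell and 0 rose, while the median of all tested genes shifted to -0.19 and the share of higher calls among all calls was 30.8%. In a fit of the wild-type libraries alone 7 fell, and 20% of all tested genes were called.

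**Figure D3:**
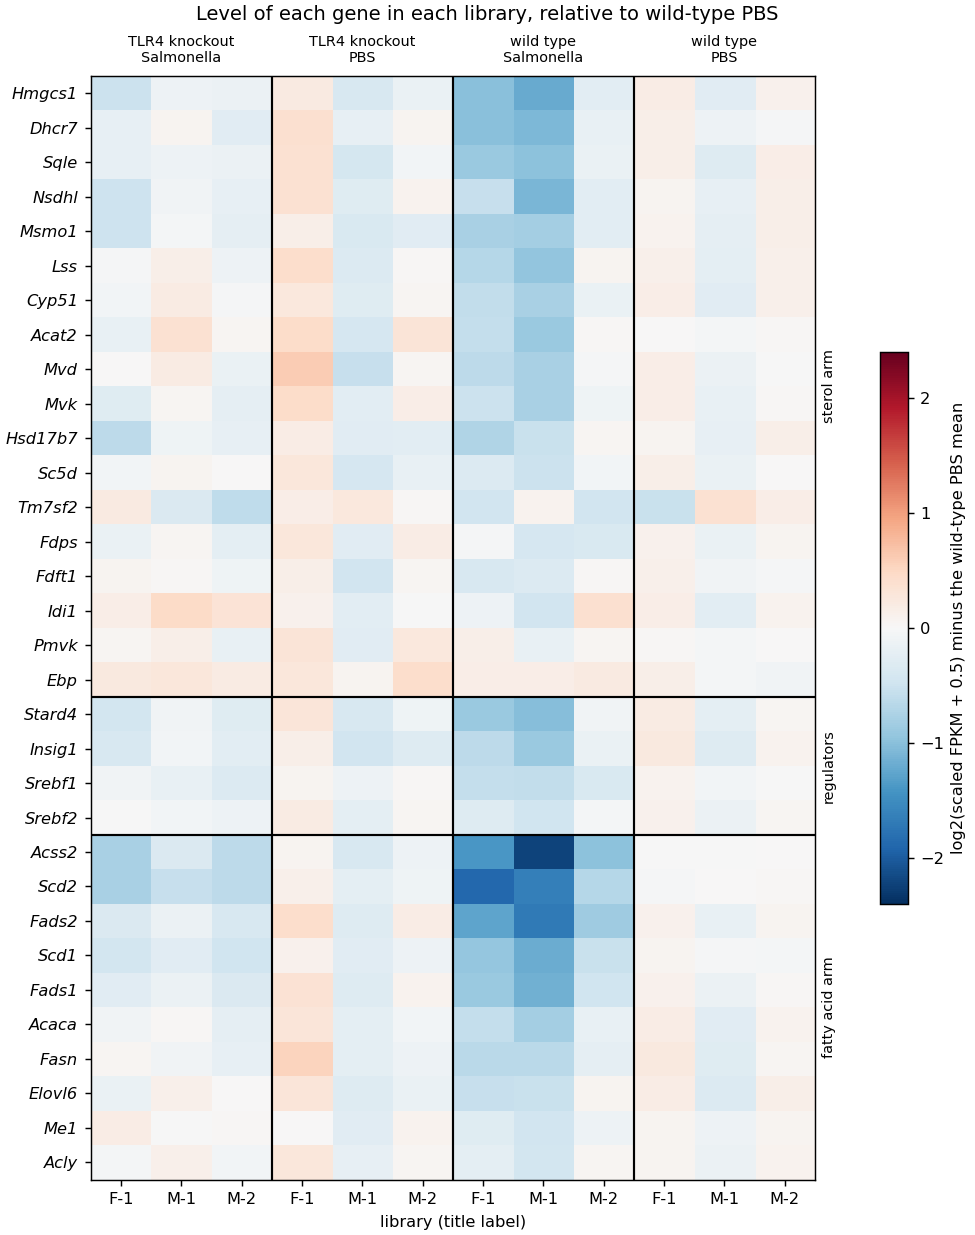
Level of each gene (row) in each library (column) as log2(scaled FPKM + 0.5) minus the wild-type PBS mean of that gene; blue is lower, red higher, and genes are ordered within an arm by their change in wild-type hosts. The darkest cells are Acss2, Scd2 and Fads2 in the F-1 and M-1 columns of wild-type Salmonella tumours, and the M-2 column of that group is paler.

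The fatty acid arm was displaced further than the sterol arm in each Salmonella library of both hosts. The mean of the sterol arm minus that of the fatty acid arm, relative to wild-type PBS on the log2 scale, was 0.37, 0.44 and 0.32 in wild-type Salmonella libraries and -0.02, 0.01 and 0.01 in wild-type PBS libraries. In knockout hosts it was 0.12, 0.20 and 0.17 under Salmonella and 0.05, -0.01 and 0.07 under PBS. The groups overlapped in neither host. Wild-type Salmonella M-2, which lay near PBS for the sterol arm, had the smallest gap of its group, 0.32, though above that of every PBS library. The group means were 0.37 ± 0.061 and 0.00 ± 0.017 in wild-type Salmonella and PBS libraries, and 0.16 ± 0.036 and 0.04 ± 0.041 in knockout Salmonella and PBS libraries (SD, n = 3 each). Taking the median over genes in place of the mean gave a smaller gap in wild-type hosts, 0.21 against 0.37. In wild-type hosts Acss2, Scd2, Fads2, Scd1 and Fads1 had lower fold changes than any sterol gene, and the other 5 fatty acid genes lay within the range of the sterol genes.

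**Figure D4:**
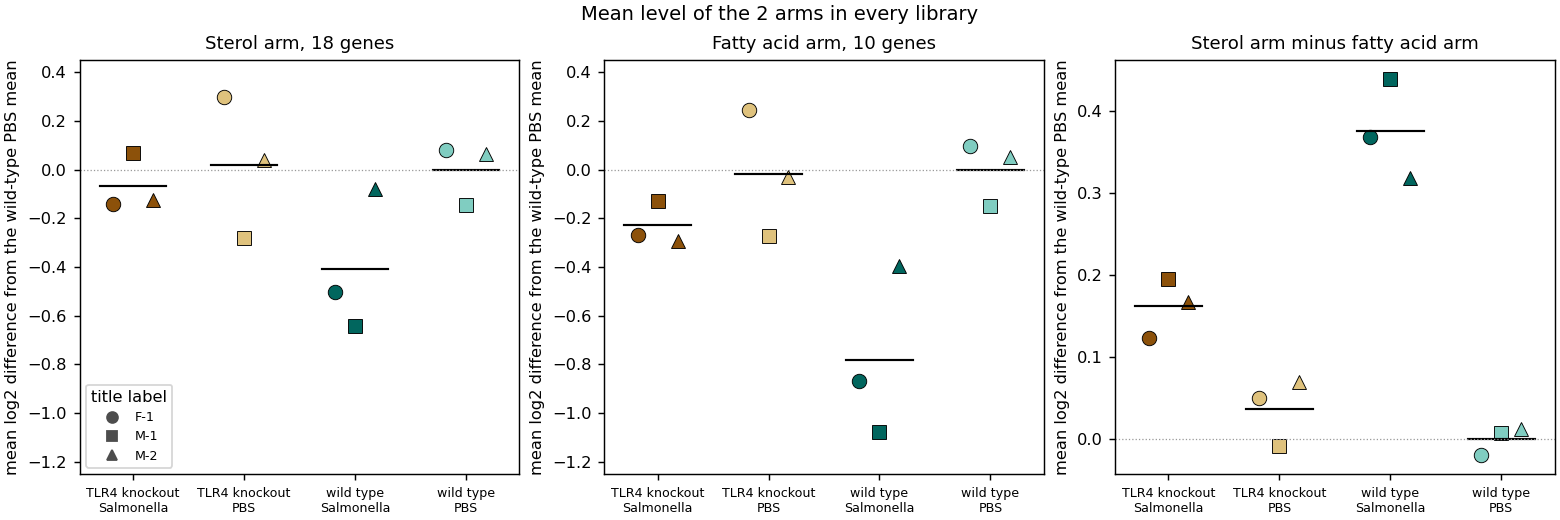
Mean log2 difference from the wild-type PBS mean over the 18 sterol genes (left), the 10 fatty acid genes (middle) and the difference between both means (right) in each library; markers give the title label and lines the mean of 3 libraries. The difference is 0.32 to 0.44 in wild-type Salmonella libraries and -0.02 to 0.01 in wild-type PBS libraries.

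The 2 arms also varied together between the PBS libraries of each host. In knockout PBS tumours, F-1 was the highest library for 29 of the 32 genes and M-1 the lowest for 31. In wild-type PBS tumours, F-1 was the highest for 22 of the 32 and M-1 the lowest for 28. Among all tested genes, F-1 was the highest library for 28.3% in knockout PBS and 37.1% in wild-type PBS tumours, and M-1 the lowest for 36.1% and 36.8%. The sterol arm stood at 0.30, -0.28 and 0.04 in the knockout PBS libraries and 0.08, -0.14 and 0.07 in the wild-type PBS libraries relative to the wild-type PBS mean. The spread of 0.29 (SD, n = 3) between knockout PBS libraries was as wide as that between wild-type Salmonella libraries, and its range was wider than the mean change of -0.41 after Salmonella in wild-type hosts. The gap between the arms stayed at -0.02 to 0.07 in these 6 libraries.

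In TLR4 knockout hosts, 0 of the 32 genes passed in limma for Salmonella over PBS, 0 with voom on the recovered fragments, and 1 had an unadjusted p under 0.05. Of all tested genes 0.773% passed, with 0.329% lower, and 19% had an unadjusted p under 0.05. The median log2 fold change was -0.09 over the sterol arm and -0.21 over the fatty acid arm, against 0.00 over all tested genes. Scd2 came nearest, at 140, 164 and 156 FPKM in knockout Salmonella tumours and 261, 206 and 223 FPKM in knockout PBS tumours. Its groups did not overlap, and the log2 fold change was -0.58 (SE 0.24, unadjusted p = 0.0326, adjusted p = 0.215). Scd1 also had groups that did not overlap, at 54.5, 61.0 and 53.4 FPKM under Salmonella and 79.7, 61.5 and 68.3 under PBS. All Salmonella libraries thus lay below PBS for 2 of the 32 genes, against 14.4% of all tested genes. Acss2 was at 11.2, 15.3 and 12.4 FPKM under Salmonella and 20.5, 14.7 and 17.9 under PBS, and Hmgcs1 at 63.3, 84.0 and 82.3 under Salmonella and 106, 70.0 and 81.8 under PBS, both with overlapping groups. Idi1, which makes dimethylallyl diphosphate, was higher in every knockout Salmonella library, at 18.6, 22.8 and 20.9 against 17.7, 13.8 and 16.3 FPKM under PBS, and did not pass (log2 fold change 0.37, SE 0.19, adjusted p = 0.303). All Salmonella libraries lay above PBS for this 1 gene of the 32, against 14.8% of all tested genes.

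Set directly against each other under Salmonella, knockout hosts had more RNA of 2 of the 32 genes, Fads2 and Acss2, and less RNA of 0. Of all tested genes 9.03% passed, with 3.39% higher and 5.65% lower in knockout hosts. All 32 log2 fold changes of knockout over wild type were positive, against 47.8% negative among all tested genes. These values share the wild-type Salmonella libraries with the comparison above. Fads2 was at 60.8, 70.0 and 58.8 FPKM in knockout Salmonella tumours and 31.8, 23.6 and 42.8 in wild-type Salmonella tumours (log2 fold change 0.98, SE 0.21, adjusted p = 0.0243). Acss2 was at 11.2, 15.3 and 12.4 FPKM in knockout Salmonella tumours and 7.06, 3.80 and 9.62 in wild-type Salmonella tumours (log2 fold change 0.95, SE 0.25, adjusted p = 0.0441). For both genes every knockout library lay above every wild-type library. The same held for Cyp51, Srebf1, Fasn, Scd1, Fads1 and Me1, 8 of 32 in all against 13.1% of all tested genes, and none of these 6 passed.

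These 2 calls are not firm. Without F-1 or M-1 of the wild-type Salmonella libraries, or any 1 of the knockout Salmonella libraries, 0 of the 32 genes passed. Without 1 of the wild-type PBS libraries, knockout PBS F-1 or knockout PBS M-2, 1 passed. Without wild-type Salmonella M-2, 18 passed and all were higher in knockout hosts, while 38.5% of all tested genes were then called. With FPKM as deposited 6 passed, when the median of all tested genes shifted to 0.16 and 58.5% of all calls were higher in knockout hosts. In a fit of the 6 Salmonella libraries alone 0 passed, and 0.0987% of all tested genes did.

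Under PBS, knockout and wild-type hosts gave 0 calls among the 32 genes and 0% of all tested genes in limma. Voom also called 0 of the 32, and 1 gene, Ebp, had an unadjusted p under 0.05 (log2 fold change 0.26, SE 0.10, unadjusted p = 0.0178, adjusted p = 1.0), against 1.42% of all tested genes. The 3 libraries of one host all lay above or all below those of the other for 0 of the 32 genes, against 3.61% of all tested genes above and 4.04% below in knockout hosts. The arm medians were 0.04 for sterol and -0.03 for fatty acid genes.

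The test of whether the Salmonella effect differed between hosts, the effect in knockout hosts minus that in wild-type hosts, passed for 0 of the 32 genes in limma and in voom, and for 0.0247% of all tested genes. Of the 32, 6 had an unadjusted p under 0.05: Srebf1, Scd1, Scd2, Fads2, Acss2 and Me1. Among all tested genes that share was 14.4%, so the count of 6 is near the background. Acss2 had the largest value (log2 difference 1.10, SE 0.36, adjusted p = 0.262), and for Hmgcs1 it was 0.66 (SE 0.34, adjusted p = 0.38). So a lower level in wild-type hosts and no call in knockout hosts is not, by this test, a shown difference between hosts. Without wild-type Salmonella M-2, 12 of the 32 passed: Hmgcs1, Cyp51, Idi1, Dhcr7, Msmo1, Srebf1, Scd1, Scd2, Fads1, Fads2, Acss2 and Me1, and 19% of all tested genes passed with them. Leaving out any other single library gave 0.

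Genes around the 2 pathways were read from lists chosen with earlier results known, so their counts carry no test. In wild-type hosts 18.6% of all tested genes rose and 17% fell. Of 9 genes that process SREBPs or sense sterols, 5 fell in wild-type hosts and 0 rose (median log2 fold change -0.35). Rnf145, a ligase of the sterol-sensing machinery, was at 15.3, 18.8 and 18.1 FPKM under Salmonella and 26.5, 28.6 and 28.6 under PBS (log2 fold change -0.67, SE 0.09, adjusted p = 0.00102). Mbtps1, the protease that makes the first cut in SREBPs, fell by 0.49 (SE 0.10, adjusted p = 0.00545). For Rnf145 library M-2 lay between its mates. Rnf145 and Mbtps1 were also higher in knockout than in wild-type hosts under Salmonella, by 0.37 (SE 0.09, adjusted p = 0.035) and 0.44 (SE 0.10, adjusted p = 0.0293).

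Of 9 other isoprenoid and sterol enzymes, 3 rose and 1 fell in wild-type hosts (median -0.06), against 18.6% and 17% of all tested genes. Nus1, a subunit of the dolichol synthase, was at 40.5, 35.1 and 25.6 FPKM under Salmonella and 19.2, 17.8 and 20.7 under PBS (log2 fold change 0.77, SE 0.14, adjusted p = 0.00288). Por, the reductase that passes electrons to Cyp51 and Sqle, rose by 0.60 (SE 0.12, adjusted p = 0.00507). Pdss1, which builds the tail of ubiquinone, rose by 0.39 (SE 0.11, adjusted p = 0.019). The 1 that fell, named after its values were seen, was Dhdds, the other subunit of the dolichol synthase. It was at 11.5, 11.7 and 14.8 FPKM under Salmonella and 15.9, 15.8 and 15.2 under PBS (log2 fold change -0.31, SE 0.11, adjusted p = 0.0405).

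Of 14 genes of cholesterol efflux, oxysterols and esters, 2 rose and 5 fell in wild-type hosts (median -0.11), against 18.6% and 17% of all tested genes. Abca1, the cholesterol exporter, was at 12.5, 15.6 and 9.43 FPKM under Salmonella and 4.44, 6.84 and 5.68 under PBS (log2 fold change 1.07, SE 0.26, adjusted p = 0.0104). Cyp7b1, an oxysterol hydroxylase, was at 7.70, 4.00 and 1.84 FPKM under Salmonella and 0.44, 0.065 and 0.14 under PBS (log2 fold change 2.66, SE 0.44, adjusted p = 0.00257). Lipa, the lysosomal lipase that frees cholesterol from esters, fell by 0.46 (SE 0.11, adjusted p = 0.01). Between hosts under Salmonella, Ch25h, which makes 25-hydroxycholesterol, was at 9.56, 11.2 and 7.35 FPKM in knockout tumours and 3.75, 3.66 and 4.08 in wild-type tumours (log2 fold change 1.17, SE 0.32, adjusted p = 0.0468). Abca1 (log2 fold change -0.98, SE 0.26, adjusted p = 0.0405) and Cyp7b1 (log2 fold change -1.89, SE 0.44, adjusted p = 0.0307) were lower in knockout than in wild-type tumours.

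Of 9 genes of glycerolipid synthesis and lipid droplets, 4 rose and 2 fell in wild-type hosts (median -0.04), against 18.6% and 17% of all tested genes. Dgat2, which makes triglyceride, was at 19.3, 28.0 and 7.68 FPKM under Salmonella and 3.14, 3.09 and 2.74 under PBS (log2 fold change 2.26, SE 0.38, adjusted p = 0.00308). Plin2, a lipid droplet coat protein, was at 171, 201 and 98.8 FPKM under Salmonella and 60.9, 64.6 and 61.2 under PBS (log2 fold change 1.27, SE 0.21, adjusted p = 0.00237). Lpin1, a phosphatidate phosphatase, moved the other way, at 1.49, 1.31 and 2.82 FPKM under Salmonella and 4.67, 4.24 and 4.63 under PBS (log2 fold change -1.13, SE 0.22, adjusted p = 0.00405). Plin2 was lower in knockout than in wild-type tumours under Salmonella (log2 fold change -0.75, SE 0.21, adjusted p = 0.0474).

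**Figure D5:**
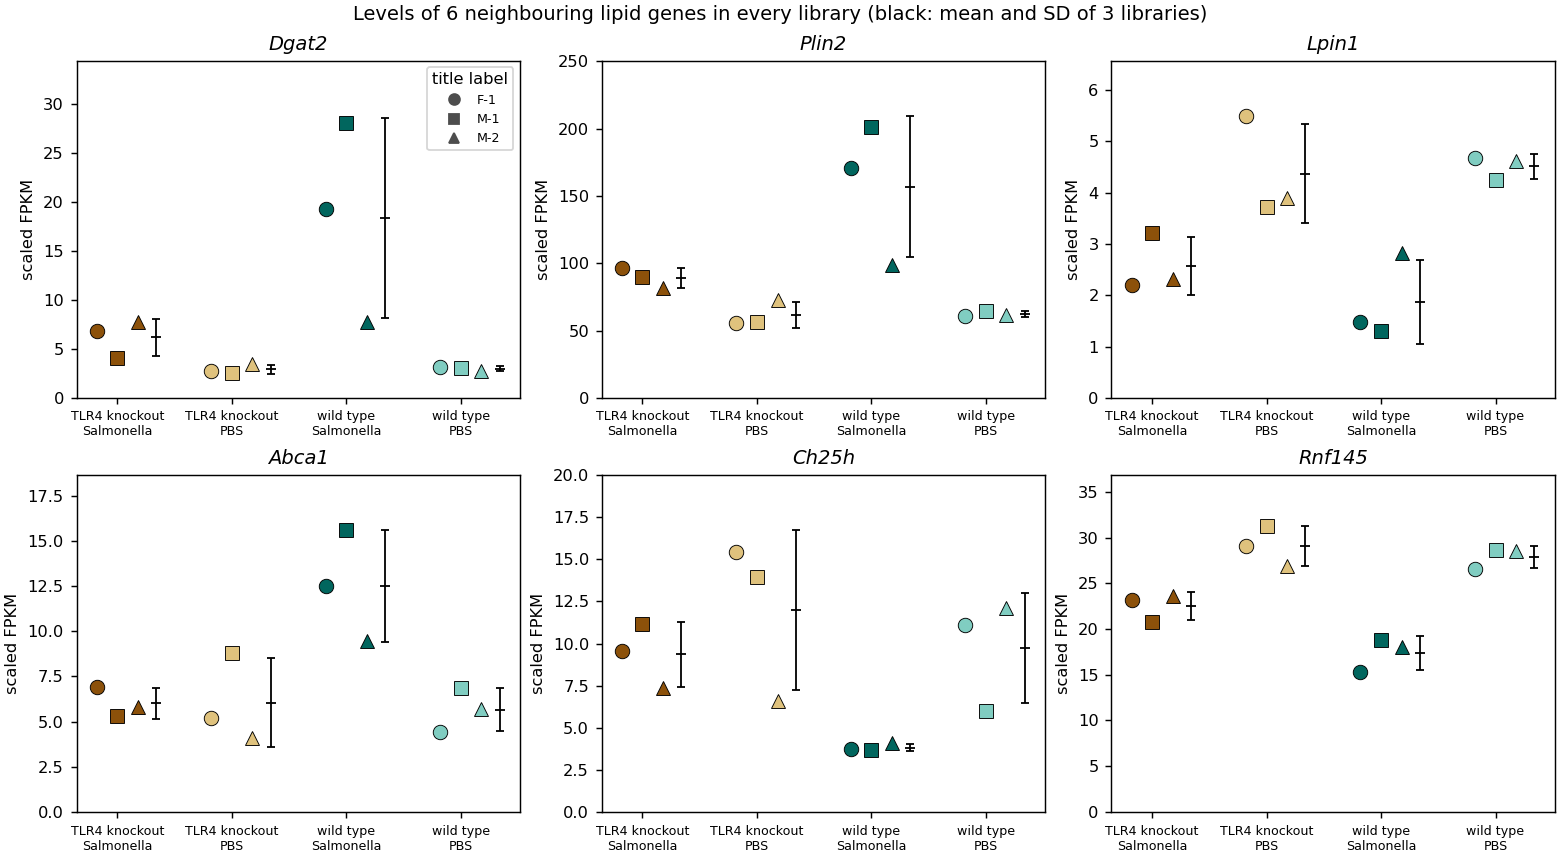
Scaled FPKM of Dgat2, Plin2, Lpin1, Abca1, Ch25h and Rnf145, lipid genes outside the 32, in each of the 12 libraries by group; markers give the title label, and black bars the mean and SD of 3 libraries. By group mean, Dgat2, Plin2 and Abca1 are highest and Lpin1, Ch25h and Rnf145 lowest in wild-type Salmonella tumours. Dgat2 is at 7.68 FPKM in M-2 and 28.0 in M-1 of that group, and at 7.72 in M-2 of knockout Salmonella tumours. Single libraries of these 2 groups overlap for Dgat2 and Lpin1.

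Of 18 tested genes of other fatty acid synthesis and elongation, out of 25 listed, 2 rose and 3 fell in wild-type hosts (median 0.05). Among all tested genes 18.6% rose and 17% fell. Hacd2, the dehydratase of the elongation cycle, was at 13.4, 14.3 and 16.3 FPKM under Salmonella and 5.31, 6.40 and 5.58 under PBS in wild-type hosts (log2 fold change 1.27, SE 0.16, adjusted p = 0.000604). Hacd2 also rose in knockout hosts, with 11.0, 9.90 and 9.31 FPKM under Salmonella and 4.40, 5.19 and 7.41 under PBS (log2 fold change 0.80, SE 0.16, adjusted p = 0.0412). Its paralog Hacd3 rose by 0.34 in wild-type hosts (SE 0.08, adjusted p = 0.01), and Acsl3, a fatty acyl-CoA ligase, fell by 0.63 (SE 0.15, adjusted p = 0.0104).

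Of 12 tested genes of fatty acid oxidation 3 rose and 1 fell in wild-type hosts (median 0.01), against 18.6% and 17% of all tested genes. The mitochondrial carnitine carrier Slc25a20 rose by 0.63 (SE 0.12, adjusted p = 0.00424) and Cpt1a, which commits fatty acids to oxidation, by 0.46 (SE 0.10, adjusted p = 0.00652), while the reductase Decr1 fell by 0.34 (SE 0.09, adjusted p = 0.0137). Acadvl, a long-chain acyl-CoA dehydrogenase, fell in knockout hosts by 0.38 (SE 0.08, adjusted p = 0.0486). Of 7 genes of cytosolic NADPH supply, G6pdx alone passed in wild-type hosts and rose by 0.36 (SE 0.10, adjusted p = 0.0144).

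Markers of other cell types differed between the same libraries. The summed level of 14 neutrophil genes was 3848 (F-1), 22469 (M-1) and 2790 FPKM (M-2) in wild-type Salmonella libraries and 27.8 to 33.5 in wild-type PBS libraries, and 14 of 14 rose. In knockout hosts it was 551 to 969 FPKM under Salmonella and 20.1 to 38.5 under PBS, and 5 of 14 rose. Sums of 10 endothelial genes were 110 to 165 FPKM under Salmonella and 43.9 to 61.0 under PBS in wild-type hosts, and 9 of 10 rose. Sums of 9 skeletal muscle genes were 117 (F-1), 96.6 (M-1) and 45.9 FPKM (M-2) in wild-type Salmonella libraries and 4.53 to 9.21 in wild-type PBS libraries, and 5 of 7 tested genes rose. In knockout hosts they were 6.06 to 130 FPKM under Salmonella, with F-1 highest, and 3.98 to 13.9 under PBS, and 0 rose. M-2 was the lowest of the wild-type Salmonella libraries in 9 of the 11 marker sums, all but those of macrophage and cell cycle genes. For T and NK cell genes M-2, at 5.23 FPKM, was thereby furthest from the wild-type PBS range of 14.3 to 31.9. Sums of hepatocyte, sebaceous gland and keratinocyte, and colon epithelium genes were small, reaching 3.19, 5.39 and 5.08 FPKM in that group. M-2 also had the smallest change of the sterol and fatty acid arms, and a link to the marker sums was not tested.

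Sums of 10 adipocyte genes were 67.8 to 211 FPKM in wild-type Salmonella libraries and 12.5 to 22.4 in wild-type PBS libraries, and in knockout hosts 13.6 to 111 under Salmonella and 7.82 to 14.8 under PBS. Of these, 4 passed the filter and 1 rose in wild-type hosts. Sums of 10 fibroblast and pericyte genes were 1490 to 2430 FPKM in wild-type Salmonella and 972 to 1211 in wild-type PBS libraries (4 rose, 1 fell). Hepatocyte genes were at 1.36 to 3.19 FPKM in sum under Salmonella and 0.851 to 1.24 under PBS in wild-type hosts, with Alb and Ttr at 0 in every library. Sums of 11 cell cycle genes overlapped, at 779 to 895 FPKM under Salmonella and 772 to 855 under PBS in wild-type hosts (1 rose, 3 fell). Sums of 10 sebaceous gland and keratinocyte genes were 1.87 to 5.39 FPKM under Salmonella and 1.31 to 1.89 under PBS in wild-type hosts, and 0 of 3 tested genes passed. Sums of 12 macrophage and monocyte genes overlapped, at 479 to 784 FPKM under Salmonella and 653 to 1081 under PBS in wild-type hosts (2 rose, 2 fell). Sums of 9 T and NK cell genes overlapped too, at 5.23 to 21.2 FPKM under Salmonella and 14.3 to 31.9 under PBS in wild-type hosts (0 rose, 1 fell). The part of any of these cell types in the lower sterol and fatty acid RNA was not tested.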

How the data were processed

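RNA-seq of 12 MC38 tumour libraries was analysed from 1 table per library. Per the labels' protocols, RNA was extracted by TRIzol and a VAHTS Universal V6 kit gave the libraries. The submitters' processing notes name fastp, HISAT2 and HTSeq with neither version nor role; for build, annotation and strand setting, nothing is given in the sources used here. The unit of the deposited values is inferred: they behave as FPKM, since for 18605 of 18609 genes every library's value is a whole number of fragments, within 0.01, at 1 gene length. The median length is 3206 bp, and 387 genes are at 0 throughout. At this depth 1 fragment in 1 kb equals 0.0258 to 0.0328 FPKM, and the limit that a count of 0 allows (3 fragments) 0.0774 to 0.0983, for counting error only.

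FPKM were divided by a trimmed mean of log ratios, unweighted, with 30% of the ratios and 5% of the levels cut at each end. Only genes that reached 0.5 FPKM in 3 or more libraries entered it and the tests. Limma 3.58.1 in R 4.3.3, with trend and robust settings, was fitted to log2(scaled FPKM + 0.5) on all 12 libraries with 4 group means and 8 residual degrees of freedom. P-values are two-sided. The fit was tested on simulated data. No pair of libraries in a group held the same values within sampling noise (chi-square per gene 16.8 to 166). Arm values are means over genes and carry no p.

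The members and lists were chosen with earlier results of these data known. Named are all 32 genes, and up to 3 per other list with the smallest p among those passed in a comparison, except 1 gene that is not reported here; Epcam, Krt8, Cdh1, Alb and Ttr are marker genes. Promoters follow RefSeq (GRCm38.p6), and gene positions and exon overlaps GENCODE M21 (GRCm38); whether the authors used this build is not known. Alternatives changed scaling, pseudocount, filter, libraries, block, title letter, test and moderation.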

Additional observations from a re-analysis of the deposited data

Results flagged for a closer look

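For Sc5d, the sterol desaturase, all Salmonella libraries lay above the PBS mean in knockout hosts and below it in wild-type hosts. Sc5d was at 13.03, 14.4 and 13.8 FPKM in knockout Salmonella tumours, all above the knockout PBS mean of 12.96. In wild-type Salmonella tumours it was at 10.9, 9.41 and 13.1 FPKM, all below the wild-type PBS mean of 13.8. PBS libraries ranged from 10.2 to 16.6 FPKM in knockout hosts and from 12.3 to 15.2 FPKM in wild-type hosts. The groups thus overlapped in both hosts. The difference between hosts was 0.41 on the log2 scale and did not pass (adjusted p = 0.398, limma).

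Me1, malic enzyme, showed the same pattern, with 63.0, 54.8 and 56.6 FPKM in knockout Salmonella tumours, against a knockout PBS mean of 53.8, and 45.2, 39.9 and 50.8 FPKM in wild-type Salmonella tumours, against a wild-type PBS mean of 55.5. PBS libraries were at 46.0 to 59.2 FPKM in knockout hosts and 51.1 to 57.8 FPKM in wild-type hosts. The groups overlapped in knockout hosts only. The difference between hosts was 0.41 on the log2 scale (adjusted p = 0.31, limma). It passed without wild-type Salmonella M-2.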

How the results depend on the processing

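Of the 32 genes, 13 fell after Salmonella in wild-type hosts. The number was 20 with FPKM as deposited and 7 with only the libraries compared, and it ranged from 6 to 25 when 1 library was left out. Calls among all tested genes were 35.6% in the main fit, and 40%, 20% and 17.7% to 51.9% in these settings. In knockout hosts the number of the 32 genes was 0, and 1 with only the libraries compared, with a range of 0 to 1 when 1 library was left out. Under Salmonella, 2 genes were higher in knockout than in wild-type hosts. That number was 6 with FPKM as deposited, 1 without the filter, 0 with only the libraries compared and 1 with the title letter as covariate, and it ranged from 0 to 18 when 1 library was left out. Calls among all tested genes were 9.03% in the main fit, and 11.7%, 4.66%, 0.0987%, 8.1% and 0.296% to 38.5% in these settings. The difference between hosts in the Salmonella effect gave 0, with a range of 0 to 12. Where leaving out a library moved a count, the cause was not tested. With the median over genes, the sterol arm minus the fatty acid arm was 0.21 for Salmonella in wild-type hosts, -0.095 for knockout over wild type under Salmonella and -0.066 for the difference between hosts.

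Between groups, same-label correlations of deviations from the group mean ran from -0.33 to 0.40 over all tested genes. For the genes described here they ran from -0.68 to 0.55. With so few libraries per group, such deviations cannot decide whether the title labels pair the libraries across groups. With the replicate block, 16 genes fell in wild-type hosts, 0 in knockout hosts, and 2 were higher in knockout hosts under Salmonella, Fads2 and Me1. Under median-of-ratios scaling, both other pseudocounts and voom on the recovered fragments the counts were 13, 0 and 2, and no gene changed sign among those named as changed. Levels near 0.5 FPKM, as for Tm7sf2, are limited by depth.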
